A study of Homo sapiens with 4 samples.

Results

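Protein phosphatase subunit mRNAs were examined for antibody enrichment of N7-methylguanosine (m7G), the methylated guanine of the mRNA cap that has also been mapped inside mRNAs. The genes were taken by name: every peak named for a gene whose symbol begins with PPP and a digit. This gave 40 of 4326 peaks in IP replicate 1 and 48 of 4862 in IP replicate 2. RefSeq lists 77 protein-coding genes with such a symbol. PTPA, an activator of PP2A that the tables name PPP2R4, brought the family to 78. It entered through its listed peaks, so it could not count as a gene without one. Genes with an older PPP name and no peak were not added.

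The cells were untreated U2OS, an established human osteosarcoma line, in every library. An antibody against m7G pulled down poly(A) RNA for 2 IP libraries, sequenced beside 2 input libraries. The values are the authors' own peak calls, 1 table for each IP replicate, with a fold over input for each peak. Whether separate cultures gave the replicates is unstated in the labels, so the gap between them may be technical. Of 8 mesenchymal and bone marker genes, 6 carried a peak in both replicates at the same place (RUNX2 and COL1A2 carried none), against 0 of 5 haematopoietic, 0 of 4 hepatocyte, 1 of 4 epithelial (KRT18) and 1 of 4 neuronal markers. A peak in either replicate was listed for 1 hepatocyte marker (SERPINA1) and 2 neuronal markers (SYP and NEFL).

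Phosphoprotein phosphatases remove phosphate from serine and threonine. A small number of catalytic subunits are shared among many regulatory subunits, which carry the enzyme to its substrates, restrain it or select what it acts on. PP1 pairs with 1 of many regulators, PP2A joins a scaffold, a catalytic and a B-type subunit, and PP2B (calcineurin) joins a catalytic chain to a calcium-binding chain. PP4 and PP6 resemble PP2A, and PP5 carries its regulatory domain in the same chain.

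The start sites below are the 6 with the highest folds among the 7 members that have a RefSeq start window and whose peak reached the first 50 bases of a transcript in both replicates, since the cap lies there. Each line gives 30 bases before a RefSeq-listed start in lower case and the 30 bases from the start onward in capitals, 5′ to 3′ on the gene's strand (RefSeq, GRCh38.p14). The lines run from the highest to the lowest by the lower of both folds. The PPP1R12C peak began 37 nt from its start, beyond the bases shown. For PPP1R18 and PPP4R3A the start is one listed inside the gene, 1746 and 244 nt from the annotated gene start.

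PPP1R18, chr6:30686616-30686675, minus strand: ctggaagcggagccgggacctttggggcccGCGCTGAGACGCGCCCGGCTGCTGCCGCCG

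PPP1CC, chr12:110742862-110742921, minus strand: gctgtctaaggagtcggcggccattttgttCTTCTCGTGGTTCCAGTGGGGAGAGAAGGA

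PPP4C, chr16:30075964-30076023, plus strand: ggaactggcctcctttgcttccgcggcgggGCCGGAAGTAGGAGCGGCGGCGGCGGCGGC

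PPP1R12C, chr19:55117608-55117667, minus strand: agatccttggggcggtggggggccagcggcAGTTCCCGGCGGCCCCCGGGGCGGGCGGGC

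PPP1R14B, chr11:64246914-64246973, minus strand: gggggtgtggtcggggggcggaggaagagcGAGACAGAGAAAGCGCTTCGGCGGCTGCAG

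PPP4R3A, chr14:91510281-91510340, minus strand: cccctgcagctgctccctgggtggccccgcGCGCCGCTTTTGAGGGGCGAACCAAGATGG

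A further 4 stretches are bases lying inside a peak in both replicates and, at the same time, in the 250 bases before a listed start. For PPP1R18, PPP1CB and PTPA that start lies inside the gene. For PPP1CC it is the annotated gene start, so its stretch lies upstream of the annotated gene. The stretches show the sequence on the gene's strand under the strongest PPP1R18 peak and under parts of the PPP1CC, PPP1CB and PTPA peaks. Capitals mark a match on the printed strand to GANGAN, a guanine and adenine pattern searched on both strands.

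PPP1R18, chr6:30686646-30686820, minus strand: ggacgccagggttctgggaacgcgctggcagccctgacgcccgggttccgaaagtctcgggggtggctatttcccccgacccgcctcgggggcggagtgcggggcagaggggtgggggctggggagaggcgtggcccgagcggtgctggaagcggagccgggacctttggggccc

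PPP1CC, chr12:110742892-110742948, minus strand: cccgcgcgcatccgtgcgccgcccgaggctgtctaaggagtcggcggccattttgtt

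PPP1CB, chr2:28751748-28751820, plus strand: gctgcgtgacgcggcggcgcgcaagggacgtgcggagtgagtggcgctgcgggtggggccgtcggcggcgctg

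PTPA, chr9:129111472-129111538, plus strand: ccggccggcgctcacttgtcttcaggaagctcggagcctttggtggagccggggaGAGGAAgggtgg

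Guanine content varied among these stretches. It was 46.3% in the PPP1R18 stretch, 53.4% in PPP1CB, 43.3% in PTPA and 33.3% in PPP1CC. Over the same lengths before all 22199 listed starts of protein-coding genes the medians were 30.9%, 32.9%, 32.8% and 31.6%, so PPP1CC, with the highest mean fold but for PPP1R18, lay close to its background. GANGAN matched only the PTPA stretch, once on each strand, and 20.6% of 67-base windows before all listed starts hold it on the RNA strand. RefSeq start windows matched 62 of the 78 genes, PPP1CA, PPP2CB, PPP3CA, PPP3CB and PPP5C not among them. A shared peak reached the 50 bases after a listed start on 7 of them, PPP1R7 beside the 6 shown. There the guanine share ran from 24% (PPP1R18) to 58% (PPP1R12C) with a median of 48%. The median was 36% at all PPP listed starts and 34% at all listed starts. These shares are over all 50 bases, of which the peak covered only 13 at PPP1R12C and 16 at PPP1R7. In the same 50 bases GANGAN was found in 1 of the 7 (PPP1CC) on the RNA strand, where 18.7% of all starts hold it, and in 2 of the 7 on the other strand (15.8% of all).

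In replicate 1, 27 of 78 PPP genes (34.6%) had a peak, against 15.9% of 20056 protein-coding genes, and in replicate 2 33 (42.3%) did, against 17.4%. Same-strand peaks whose blocks shared 1 bp or more between replicates are called shared below. Of the PPP peaks, 34 of 40 in replicate 1 (85%, against 62.6% of all peaks) and 34 of 48 in replicate 2 (70.8%, against 55.9%) met a peak in the other replicate. In all, 26 of 78 PPP genes (33.3%, Wilson 95% interval 23.9 to 44.4, counting error only) had one, against 10.5% of protein-coding genes. The same 26 were also all the PPP genes named in both tables, for which the background was 11.6%. Among genes with a peak in either table, 26 of 34 PPP genes (76.5%) had a shared peak and 48.4% of all such genes did. Expression is not in these tables, and a gene with no peak may be little expressed, little modified or under the authors' threshold, which cannot be told apart here. Only the more significant peaks of each table, with log10 of the false discovery rate at most -5, left 15 of 78 PPP genes (19.2%) against a background of 4.88%.

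**Figure D1:**
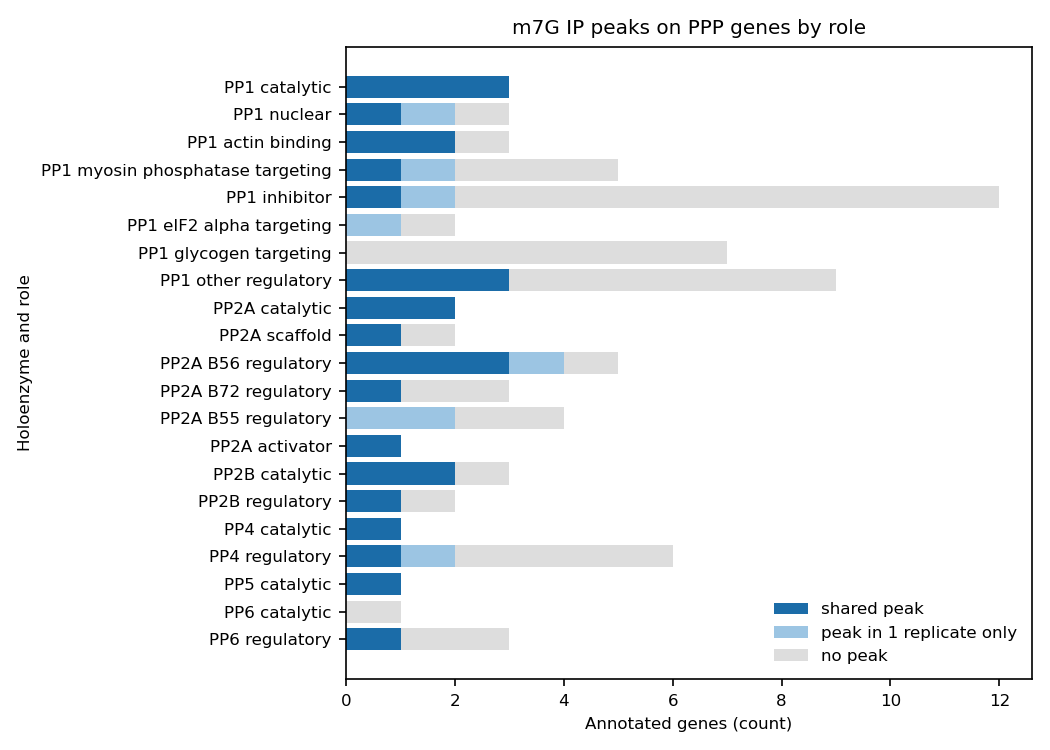
Number of annotated genes (horizontal axis) in each holoenzyme and role (vertical axis), split into genes with a shared peak (dark blue), with a peak in 1 replicate only (light blue) and with no peak (grey). All 3 PP1 and both PP2A catalytic genes have a shared peak, and the 7 glycogen-targeting genes have none. Of all protein-coding genes, 10.5% have one.

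Of the 11 catalytic genes, 9 had a shared peak (81.8%, Wilson 52.3 to 94.9), beside 10.5% of all protein-coding genes. Of the 67 other members, 17 had one (25.4%, Wilson 16.5 to 36.9). These intervals hold counting error only, and the difference was not tested. The 9 were all 3 PP1 genes (PPP1CA, PPP1CB, PPP1CC), both PP2A genes (PPP2CA, PPP2CB), PPP3CA and PPP3CB of calcineurin, PPP4C and PPP5C. PPP3CC and PPP6C had no peak in either table. By fold the catalytic subunits were not set apart: their 10 shared peaks had a median of 3.44, against 4.03 for the 24 on other members and 4.04 for all 2642 shared peaks. The PP1 catalytic proteins are close copies of each other, as are the PP2A ones, and the sources used here do not say how reads that match several genes were placed.

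PPP1CC, the gamma isoform of PP1, had a fold of 18.5 in replicate 1 and 27.5 in replicate 2. Its peak covered the annotated start on chr12:110731899-110742978 in replicate 1, with 326 of its 329 nt in the block at the start. It was the most significant PPP peak of both tables, with log10 p of -83.3 and -101. PPP1CA, the alpha isoform, carried 2 shared peaks of very different strength. At its start, on chr11:67401758-67401905, the folds were 18.5 and 10.9. Near the gene end, on chr11:67398446-67398728, they were 1.57 and 1.66, with the same block edges in both replicates. PPP1CB, the beta isoform found in myosin phosphatase, had 5.62 and 2.60 in blocks of identical edges beginning 144 nt from its start. The order of the isoforms by their strongest peak was therefore PPP1CC, PPP1CA, PPP1CB in replicate 2. Replicate 1 gave PPP1CC and PPP1CA the same value and PPP1CB a lower one. That value, 18.5, was held by 67 peaks of replicate 1, as described below. Log10 p there was -83.3 for PPP1CC and -14.1 for PPP1CA. The place of PPP1CA rests on its start peak, whose log10 false discovery rate in replicate 2 was -4.98. A limit of -5 removed it and left PPP1CA at a mean log2 fold of 0.69, below PPP1CB at 1.93.

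PPP2CB, the beta isoform of the PP2A catalytic subunit, stood above its paralog. Its folds were 15.1 and 17.7, on chr8:30812359-30812776 in replicate 1, at the gene start. PPP2CA, the alpha isoform, had 3.94 and 2.42, also at the start, from 22 nt on in replicate 1 and 81 nt on in replicate 2. The values of these paralogs did not overlap between replicates. PPP4C, the PP4 catalytic subunit, had 9.70 and 8.61 on chr16:30075976-30076457, a peak of 125 and 143 nt blocks with the same edges in both replicates. A second PPP4C peak, of 1.51, was listed in replicate 2 alone.

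The shared peaks of the calcineurin and PP5 catalytic mRNAs lay between 2.18 and 3.55. PPP3CA, calcineurin A alpha, had 3.11 and 2.93, beginning 325 nt from the start in replicate 1, and a peak closer to the start, of 8.36, was listed only there. PPP3CB, calcineurin A beta, had 3.55 and 2.18 in a block of 160 nt beginning 60 nt from its start and one of 50 nt lying 16287 nt further on, with identical edges in both replicates. PPP5C had 3.08 and 3.02 near its gene end, where the span of PPP5C-AS1 on the opposite strand also covers the peak. The regulatory chain of calcineurin, PPP3R1, had a weak peak of 1.64 and 1.59 at its start, and PPP3R2 had none.

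**Figure D2:**
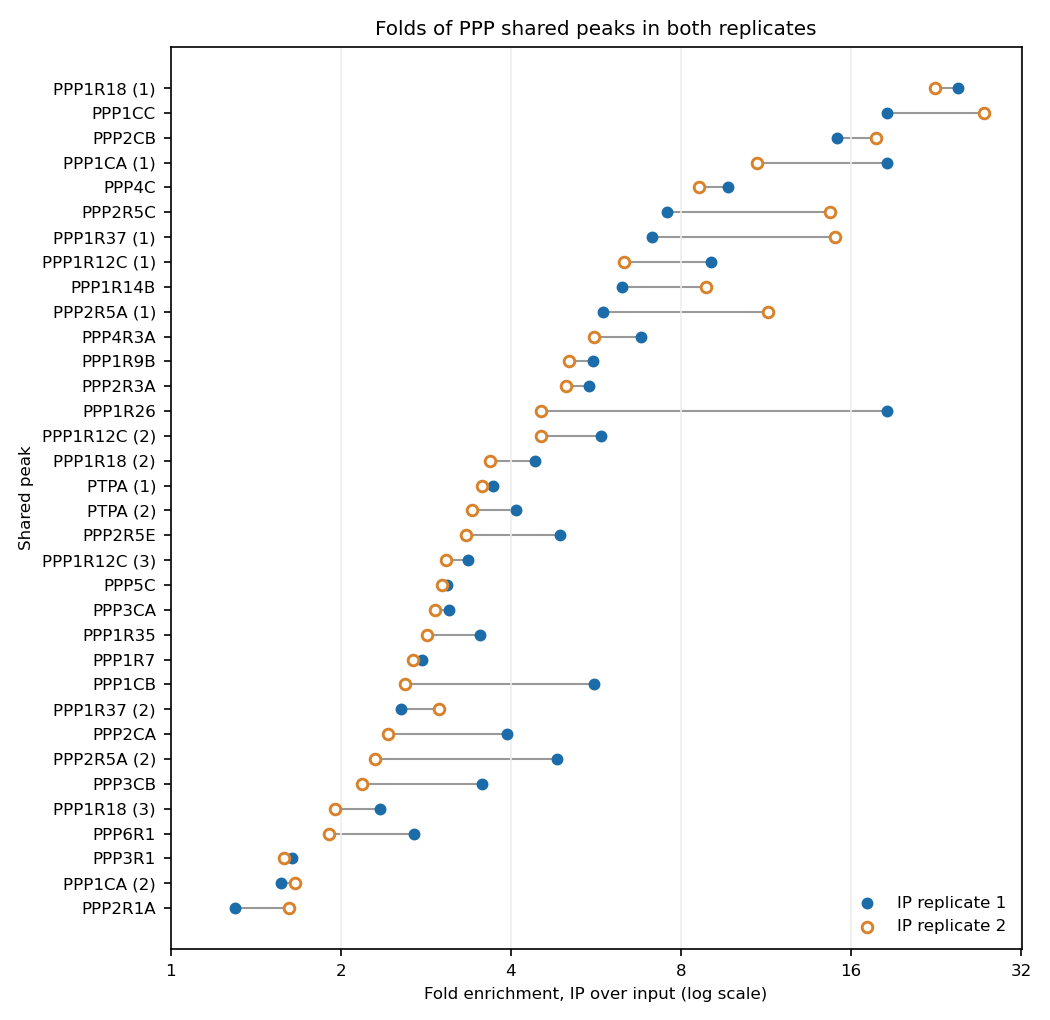
Fold over input (horizontal log axis) of each of the 34 PPP shared peaks (vertical axis, sorted by the lower fold), with filled points for IP replicate 1, open points for IP replicate 2 and a line joining them. Numbers in brackets tell peaks of 1 gene apart. PPP1R18, PPP1CC, PPP2CB and the PPP1CA start peak have at least 10.9 in both replicates, and PPP1R26 has the widest gap, 18.5 and 4.53.

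PP1 regulators carried a shared peak on 8 of 41 genes (19.5%), against 10.5% of all protein-coding genes. PPP1R18 (phostensin), which binds actin filaments, had the highest peak of the family by the lower of both folds, 24.7 and 22.5, rank 47 of 2642 shared peaks. It lay on chr6:30686611-30686940 in replicate 1, over the inner start whose sequence is given above. Despite that fold its log10 p was only -8.58 and -9.13. Downstream peaks of PPP1R18 were weaker: 4.41 and 3.68 on chr6:30685417-30685656, then 2.35 and 1.95 on chr6:30684820-30684999. PPP1R9B (spinophilin), a scaffold linking PP1 to actin, had 5.58 and 5.07 on chr17:50149146-50149891. This was a long peak of 746 and 657 nt with log10 p of -49.7 and -49.8, so significance and fold ordered these actin-binding members differently. PPP1R9A had no peak.

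Myosin phosphatase targeting subunits hold PP1 on myosin. PPP1R12C alone of the 5 had shared peaks, 3 of them. At its start, on chr19:55117361-55117600, the folds were 9.03 and 6.33. Toward its 3′ side they were 5.77 and 4.52 on chr19:55092311-55093177, a peak of 6 blocks in replicate 1 and 4 in replicate 2, and 3.36 and 3.07 on chr19:55091152-55091331. Among these 3 shared peaks the folds were thus highest at the start and lowest at the last one in both replicates. Peaks of PPP1R12C listed in 1 replicate only lay between the start and these 3′ peaks and were lower still. They had 3.17 in replicate 1 and 2.30 in replicate 2. PPP1R16A had a peak of 1.87 in replicate 2 alone.

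Of the 12 genes classed here as PP1 inhibitors, 1 had a shared peak (8.33%), beside 10.5% of all protein-coding genes. PPP1R37, described below, was not in this class. The inhibitor with a shared peak was PPP1R14B, small and phosphorylation-dependent. It had 6.30 and 8.86 over 479 and 509 nt, chr11:64246463-64246941 in replicate 1, beginning 2 nt from its start. The span of PPP1R14B-AS1 on the opposite strand also covers it. PPP1R14C had 5.45 in replicate 2 alone, at 127 nt from its start. Of the nuclear regulators, PPP1R7 (SDS22) had 2.79 and 2.68 in a peak of 3 blocks from its start, and PPP1R8 (NIPP1) had 4.25 in replicate 1 alone.

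The remaining PP1 regulators with shared peaks differed in where they lay and in how far the replicates agreed. PPP1R37, a leucine-rich repeat protein that inhibits PP1 but was classed with other regulators, had its stronger peak at the gene end. The folds there were 7.12 and 15.0 on chr19:45146838-45147106. Its weaker peak, 2.56 and 2.98 on chr19:45145484-45145663, had identical edges in both replicates. PPP1R26 had 18.5 in replicate 1 and 4.53 in replicate 2, a 4.08-fold gap, the widest of the family. PPP1R35, a centriole protein, had 3.52 and 2.84.

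Neither eIF2 alpha phosphatase regulator had a shared peak. PPP1R15A (GADD34), the stress-induced subunit that sends PP1 to eIF2 alpha, had 2.27 in replicate 2 alone, 1556 nt from its start on chr19:48873977-48874096, with log10 of the false discovery rate of -2.95. PPP1R15B, its constitutive counterpart, had no peak. The 7 glycogen-targeting subunits had no peak either.

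Among PP2A regulators, 3 of 5 B56 and 0 of 4 B55 genes had a shared peak, beside 10.5% of all protein-coding genes. These counts are small and their difference was not tested. PPP2R5C, B56 gamma, had 7.54 and 14.7 on chr14:101761798-101762961, with identical edges in both replicates. PPP2R5A, B56 alpha, had 5.82 and 11.4 on chr1:212285597-212285686 and 4.82 and 2.30 on chr1:212285835-212286103. Replicate order was thus opposite at its neighbouring peaks: replicate 2 had the higher value near the start and the lower one downstream. PPP2R5E, B56 epsilon, had 4.89 and 3.33 at its start. PPP2R5D had 1.55 in replicate 2 alone and PPP2R5B had none. Of the B55 subunits, PPP2R2A (3.67, 13 nt from its start) and PPP2R2C (3.50) were listed in replicate 2 alone.

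The other PP2A genes had low to middling folds. PPP2R3A, of the B72 class, had 5.50 and 5.00 in 3 blocks in replicate 1 and 2 in replicate 2, up to 13760 nt apart, and it was the 1 gene lost when peak midpoints had to lie within 100 nt. PPP2R1A, the main scaffold, had 1.30 and 1.62, the lowest value of replicate 1 (in replicate 2 PPP3R1 was lower, at 1.59), and PPP2R1B had no peak. PTPA, the activator, had nearly equal folds at its ends: 4.08 and 3.41 from near the start, on chr9:129111009-129111538, and 3.72 and 3.55 near the gene end, on chr9:129147928-129148527. Among PP4 and PP6 regulators, PPP4R3A had 6.79 and 5.61 on chr14:91509942-91510331 and PPP6R1 had 2.70 and 1.91. PPP4R3B had 3.08 in replicate 2 alone, 17 nt from its start.

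Several members with a shared peak also had peaks that the other replicate lacked. In replicate 1 these were PPP1R12C (3.17), PPP1R37 (2.13), PPP1R18 (2.00) and PPP1R9B (1.91), beside the PPP3CA peak above. In replicate 2 they were PPP1R26 (4.07 and 3.19), PPP6R1 (4.07), PPP1R12C (2.30), PPP1R18 (1.57) and PTPA (1.57), beside the PPP4C peak above. Spans of other genes also cover shared peaks: LOC124904025 at PPP1R9B, LOC112268140 at PPP2R5E, PASK at PPP1R7, PPP1CB-DT at PPP1CB, PPP3CB-AS1 at PPP3CB, PPP3R1-AS1 at PPP3R1 and MIR3661 at PPP2CA. The library kit keeps strand, but how the authors used strand in calling peaks is not stated. Exon, intron and UTR annotation was not used here.

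**Figure D3:**
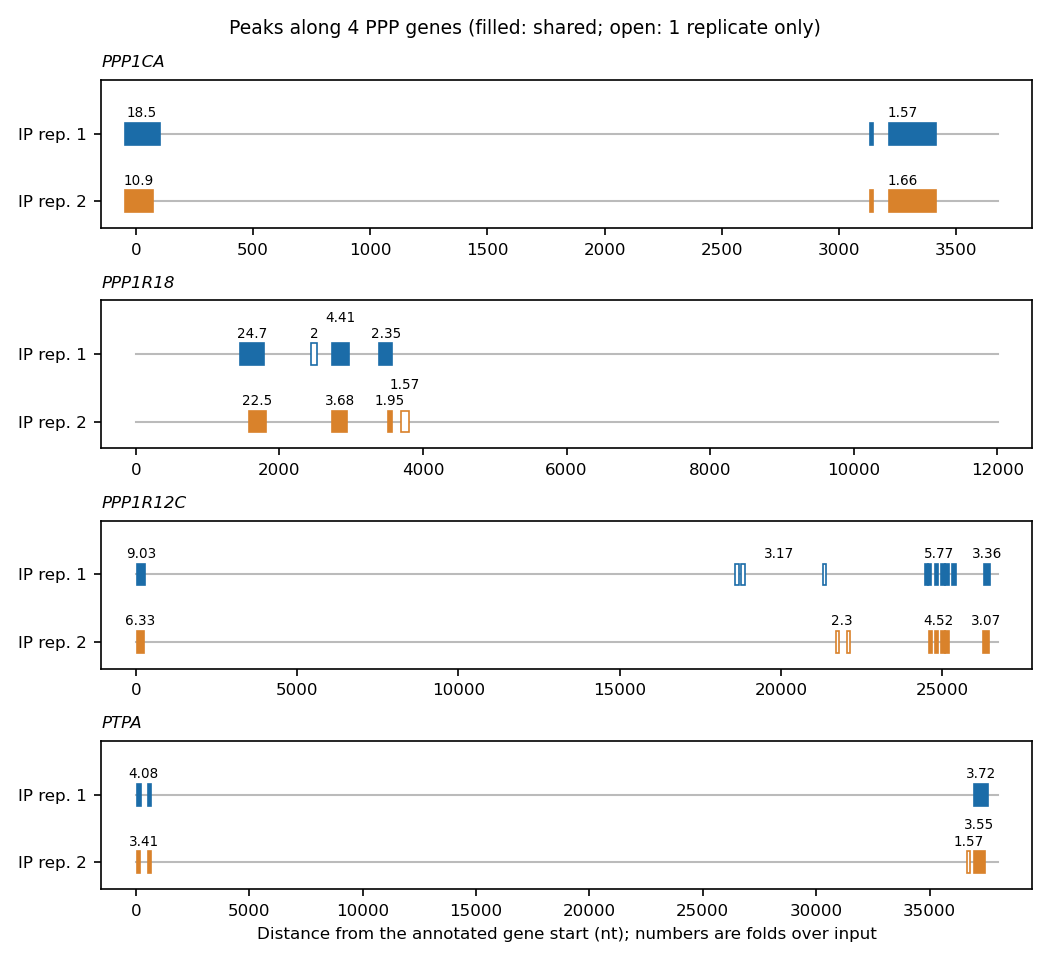
Blocks of the peaks along PPP1CA, PPP1R18, PPP1R12C and PTPA, by distance from the annotated gene start in nt, with IP replicate 1 above and IP replicate 2 below. Filled blocks belong to shared peaks, open ones to peaks of 1 replicate, and narrow blocks are widened to stay visible. Numbers are folds: PPP1CA goes from 18.5 and 10.9 at its start to 1.57 and 1.66 near its end, while PTPA has similar folds at its ends.

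Across the 34 PPP shared peaks the folds resembled those of shared peaks at large. The median was 4.86 in replicate 1 (range 1.30 to 24.7) and 3.48 in replicate 2 (1.59 to 27.5), against 4.14 and 3.80 for all 2642. Both folds were 4 or more at 15 of 34 (44.1%), against 42.9% of the 2639 shared peaks on a matched gene, the base of the shares that follow. More than 1 block in both replicates was listed for 10 (29.4%), against 31% of all. Within single tables it was 14 of 40 PPP peaks in replicate 1 (35%, against 30.8%) and 15 of 48 in replicate 2 (31.2%, against 34.7%). In all, 6 genes had at least 2 shared peaks (23.1% of 26, against 19.6% of all genes with a shared peak). These shares lay within 5 percentage points of their backgrounds. Identical block edges in both replicates were listed for 6 of 34 (17.6%, against 10.2% of all).

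The gap between replicates was also much like that of other shared peaks. Its median log2 size was 0.29, or 1.22-fold, against 0.30 for all. It exceeded 2-fold at 4 of 34 (11.8%, against 8.71% of all): PPP1R26, PPP1CB, the stronger PPP1R37 peak and the downstream PPP2R5A peak. The fold was higher in replicate 1 at 25 of 34 (73.5%), where the background was 55.5%. Spearman's rho between replicates was 0.881 and Pearson's r on log2 folds 0.849 over the 34 peaks, which share 2 IP libraries and are a description only. PPP1CA, PPP1CC and PPP1R26 stood at exactly 18.5 in replicate 1. That value was the most frequent fold of at least 10 there, held by 67 peaks, and among the peaks that high 53% were whole multiples of it (tolerance 0.05, and 0.5 for folds of 100 or more), as were 3 of 4 PPP peaks. In replicate 2 the most frequent such fold was 10, with 29.1% of the peaks that high at its multiples and 0 of 7 PPP peaks. Only whole multiples were counted, and repeated values at fractions of these folds were not looked for. The part of repeated values in the folds was not tested. Without the 3 peaks at 18.5 the median log2 fold of the family was 1.90 in place of 1.97.

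How many PPP shared peaks lay at transcript starts depended on how distance was counted. With the midpoint of the joined blocks within 200 nt of the annotated gene start in both replicates, 5 of 34 counted (14.7%), below the 20.6% of all shared peaks. In replicate 1 alone it was also 5 (14.7%, against 23.6%), and in replicate 2 alone 6 (17.6%, against 22.8%). With any block within 200 nt, 14 counted (41.2%), above the 32.1% of all. When inner starts listed by RefSeq were included as well, 18 counted (52.9%), against 36.1%. The long start peaks of PPP2CB, PPP4C and PPP1R14B, with midpoints over 200 nt inside the gene, made up part of the difference, and the peaks of PPP1R18, PPP4R3A, PPP1R26 and PPP1R35 lay at inner starts.

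By place, the family had median folds close to those of all shared peaks except at inner listed starts. The 14 gene-start peaks had a median fold of 5.49, against 5.51 for all shared peaks at gene starts. The 4 at inner listed starts had 7.52, against 5.60 for all such peaks, a difference that rests on few peaks and was not tested. A block came within 1000 nt of the annotated end at 6 of 34 (17.6%, against 17.8%). The 5 of them at no start had 3.21, against 3.18, and the 11 elsewhere had 3.33, against 3.38. Of the latter, PPP2R5C reached the highest values, in a peak whose nearest block lay 450 nt from a listed start. PPP1R37 was the exception at gene ends, with 7.12 and 15.0 where the other 4 lay between 1.57 and 3.72.

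**Figure D4:**
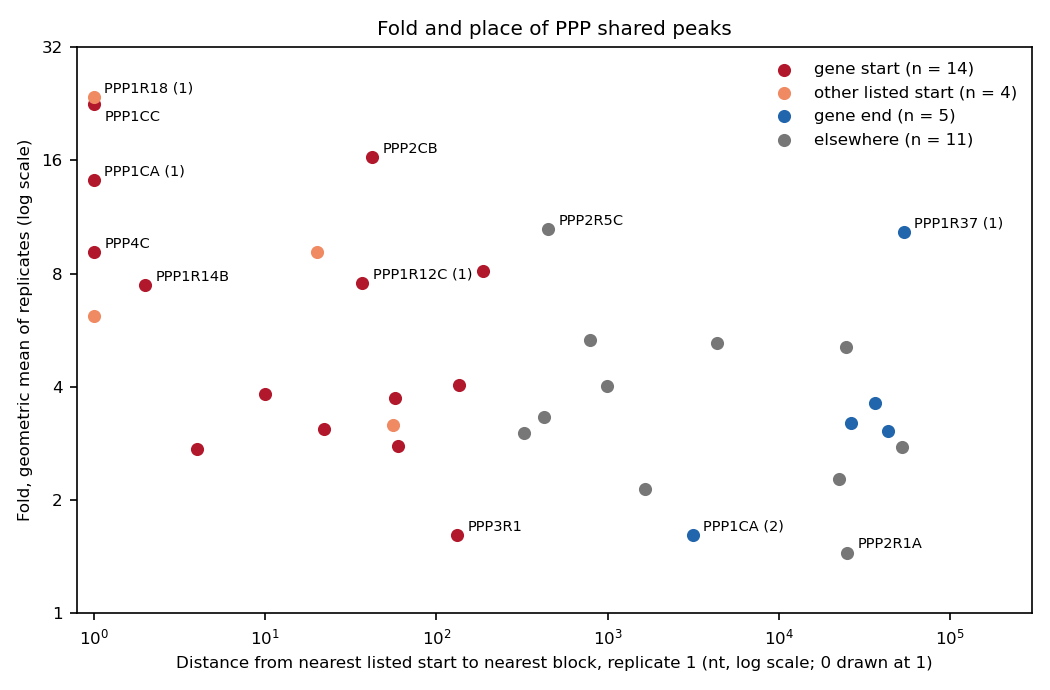
Geometric mean fold of both replicates (vertical log axis) of each PPP shared peak against the distance in nt from its nearest block to the nearest listed start in replicate 1 (horizontal log axis, 0 drawn at 1), coloured by place. The peaks of PPP1R18, PPP1CC, PPP2CB and PPP1CA at the upper left lie within 42 nt of a start, while PPP2R5C and PPP1R37 are high at 450 and 53659 nt.

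Partners of these enzymes that carry no PPP name had shared peaks on 26 of 133 genes (19.5%), against the same background of 10.5%. The difference from the PPP genes was not tested. Of the metal-dependent PPM phosphatases, a separate family with the same chemistry, 4 of 19 had one, PPM1F (9.25 and 18.3), PPM1K (18.5 and 7.14) and PPM1B (7.37 and 4.61) being the highest. Calcineurin regulators and targets had 4 of 21, led by CRTC2, a CREB coactivator that calcineurin dephosphorylates (14.4 and 15.0), NFATC4 (5.20 and 5.56) and CHP1 (5.92 and 4.14). PP2A partners had 5 of 26, with ANP32A at 4.47 and 5.21, ENSA, the mitotic PP2A inhibitor, at 3.18 and 2.91, and STRN4 at 3.36 and 2.73. PP1 partners had 4 of 28, with LMTK2 at 5.63 and 6.25, PARD3 at 6.53 and 3.57 and ELFN1 at 4 and 2.91.

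Of the eIF2 alpha stress pathway, which PPP1R15A serves, 4 of 22 genes had a shared peak. ATF5 had 6.17 and 6.43, EIF2B4 4.34 and 5.00, and the kinase EIF2AK1 5.81 and 4.33. The myosin phosphatase pathway had 4 of 14, with ROCK1, the kinase that inhibits that phosphatase, at 4.30 and 3.86, MYH9 at 2.56 and 2.91 and MYL6 at 2.13 and 1.88. ANKRD52, a PP6 partner, was the 1 gene of 3 in its list, at 18.5 and 15.0. Its replicate 1 value, like that of PPM1K, is the repeated fold of 18.5 described above.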

How the data were processed

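Per the submitters' processing notes, the aligner STAR and the build GRCh38 were used, with no version stated. The sources used here name no peak caller. Per the file headers, peaks in the deposited tables carry a p-value in the score column, log10 values of p and of a false discovery rate, and a fold enrichment (a ratio on a linear scale). The sources used here do not say how the authors scaled the fold. The tables hold no counts, so depth is unknown, and the weakest log10 false discovery rate was -1.31 and -1.32. Peaks were called for each replicate.

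Gene names were matched to RefSeq GRCh38.p14 by symbol or synonym within 2000 nt, which matched all PPP peaks. Mutually best overlaps made pairs. Positions are 1-based, and distances are genomic. The gene table used gives no strand, so the annotated start is the end of the gene span that the strand listed for the peak puts upstream. No test was made, since each replicate is 1 table. The replicate gap stands in for error. Members, roles and lists were chosen with earlier results of these data known. Every PPP gene with a peak is named, with positions for the 12 highest by the lower fold and for genes with 2 or more shared peaks, and up to 3 genes for each related list. The pairing was tried on replicate 1 peaks shifted slightly or moved far away. That is a simpler case than the differences between these replicates. Alternatives were stricter overlap, midpoints, significance and fold, each replicate left out, and other distances. Software was Python 3.11.15, numpy 2.4.6, scipy 1.17.1 and matplotlib 3.10.9.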

Additional observations from a re-analysis of the deposited data

How the results depend on the processing

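The share of PPP genes with a shared peak was 33.3% with 50% reciprocal overlap (8.68% of all protein-coding genes). It was 32.1% with midpoints within 100 nt (9.47% of all) and 29.5% where both folds were 2 or more (8.83% of all). With log10 of the false discovery rate at most -5 it was 19.2% (4.88% of all). The PPP share with a peak in both tables was also 19.2% there. Counted only among genes with a peak in either table, the shared-peak share was 76.5% (48.4% of all such genes). Peaks of PPP genes near the gene start were 14.7% as reported (20.6% of all shared peaks). With midpoints within 500 nt they were 41.2%, and the share of all shared peaks is not given for that distance. With any block within 200 nt of the annotated start they were 41.2% (32.1% of all). With any block within 200 nt of any listed start, chosen after seeing the data, they were 52.9% (36.1% of all). With 1 replicate left out, the related lists had 31.6% to 38.3% and PPP genes 34.6% to 42.3%, since overlap is no longer required. All protein-coding genes had 15.9% to 17.4% in that setting. The median log2 fold stayed between 1.70 and 2.40 under the alternatives run. Of 141 values of single genes under alternatives, 11 moved by more than the spread between replicates (0.44 on the log2 scale). None could change sign, since every listed fold was above 1 (lowest 1.06 in replicate 1 and 1.12 in replicate 2). Genes that a setting removed are not among the 141. A setting that only removes peaks leaves the fold of each kept peak as it was. PPP1CA moved to 0.69 with the stricter false discovery rate, which removed its start peak. The other moves all came from leaving 1 replicate out. There the size of the shift is fixed by the gap between replicates, so those values add nothing to that gap. No paired analysis was possible because the tables used here hold no input or IP counts, only 1 fold of IP over input for each peak and replicate. For the same reason depth limits on single peaks cannot be given.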
